A study of Gallus gallus with 32 samples.

Results

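The genes described here are 7 genes of the red blood cell: XK, RHAG, EPB41 and EPB42 of the cell membrane and its protein skeleton, the enzyme CA2, and the nuclear regulators HEMGN and TAL1. They were chosen by name, as probe sets with a single gene symbol equal to one of these names, with earlier results of these data known. All 7 were measured, each by 1 probe set, among 17894 tested probe sets that cover 9683 genes with a single symbol. The arrays carried RNA from frozen, ground blood clots of 32 broiler chickens, 1 bird per array. There were 8 males and 8 females on a standard diet supplemented with comfrey, a plant of the borage family, and 8 males and 8 females on the standard diet alone. The labels give every bird an age of 32 in a field headed months. The sources used here do not state the dose, the feeding period or the strain.

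A red cell carries its shape and elasticity in a net of spectrin and actin under the membrane, which protein complexes tie to the lipid layer. Birds keep the nucleus in the circulating red cell, so whole blood RNA of a chicken comes largely from these cells. EPB41 fastens the spectrin and actin net, and EPB42 binds the anion exchanger band 3. RHAG is the core of the Rh complex and conducts ammonia and gases. XK is a multispan membrane protein that in human red cells is bound to the Kell blood group protein, and its loss in people causes McLeod syndrome. CA2 converts carbon dioxide and water to bicarbonate, which lets blood carry carbon dioxide to the lungs. TAL1 is a transcription factor that red cell formation requires and that works with GATA factors, and HEMGN (hemogen) is a nuclear protein of developing blood cells. In chickens the male is ZZ and the female ZW, and dosage of Z-linked genes is only partly balanced between them. In the chicken assembly GRCg7b the genes lie on chromosomes 1 (XK), 3 (RHAG), 23 (EPB41), 20 (EPB42), 2 (CA2) and 8 (TAL1), and HEMGN is Z-linked.

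Values are log2 signals as deposited, so a difference of 1 is a 2-fold difference, and each value is a relative signal of its own probe set. The array medians lay between 6.51 and 6.60, and arrays give no read counts, so the number of birds limits the precision. The alpha globin genes HBAD and HBA1 averaged 13.87 and 13.67 over the 32 birds, so the red cell RNA of the label was present. Markers of other blood cells were measured too, and in bulk blood fewer cells of a type and less RNA per cell cannot be told apart. Differences were tested in limma with p-values adjusted over all 17894 probe sets, and a gene is called changed at an adjusted p under 0.05.

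Control male 7 had low values in most of these genes. It had the lowest value of the 32 birds in RHAG, EPB41, EPB42, CA2 and TAL1, and ranked 2 from the lowest in HEMGN and 5 in XK. Its thrombocyte and monocyte marker levels were the highest of the 32 birds. Its T cell, B cell and heterophil marker levels ranked 31, 31 and 25 from the lowest, so all of these lists were high. Its globin level ranked 21, that of other carbonic anhydrases 30 and that of other erythroid regulators 9. Haem synthesis ranked 4, and the other membrane and skeleton genes ranked 3. A level here is the mean log2 signal over the genes of a list. The globin list of 6 genes includes the dim HBZ (6.36), CYGB (5.85) and MB (6.0), which weigh as much as HBAD and HBA1. Its rank is therefore not a measure of the amount of globin RNA. The monocyte list holds 3 genes, among them MRC1 at a mean of 4.0. Control male 8 ranked 2 from the lowest in CA2 and RHAG and 3 in TAL1, but 6 in XK, 9 in HEMGN, 12 in EPB41 and 27 in EPB42. Its thrombocyte markers ranked 31, its monocyte, T cell and heterophil markers 27, 15 and 10, and its B cell marker level was the lowest of the 32 birds. Its globin level ranked 2 from the lowest, and that of the other membrane and skeleton genes was the lowest of the 32 birds. For the 7 genes, sex and diet differences that moved without these birds are given with and without them. Calls of marker genes and related genes were not examined without them. Both birds were picked after their CA2 values were seen, so the values without them are a description of how much the 2 birds carry.

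**Figure D1:**
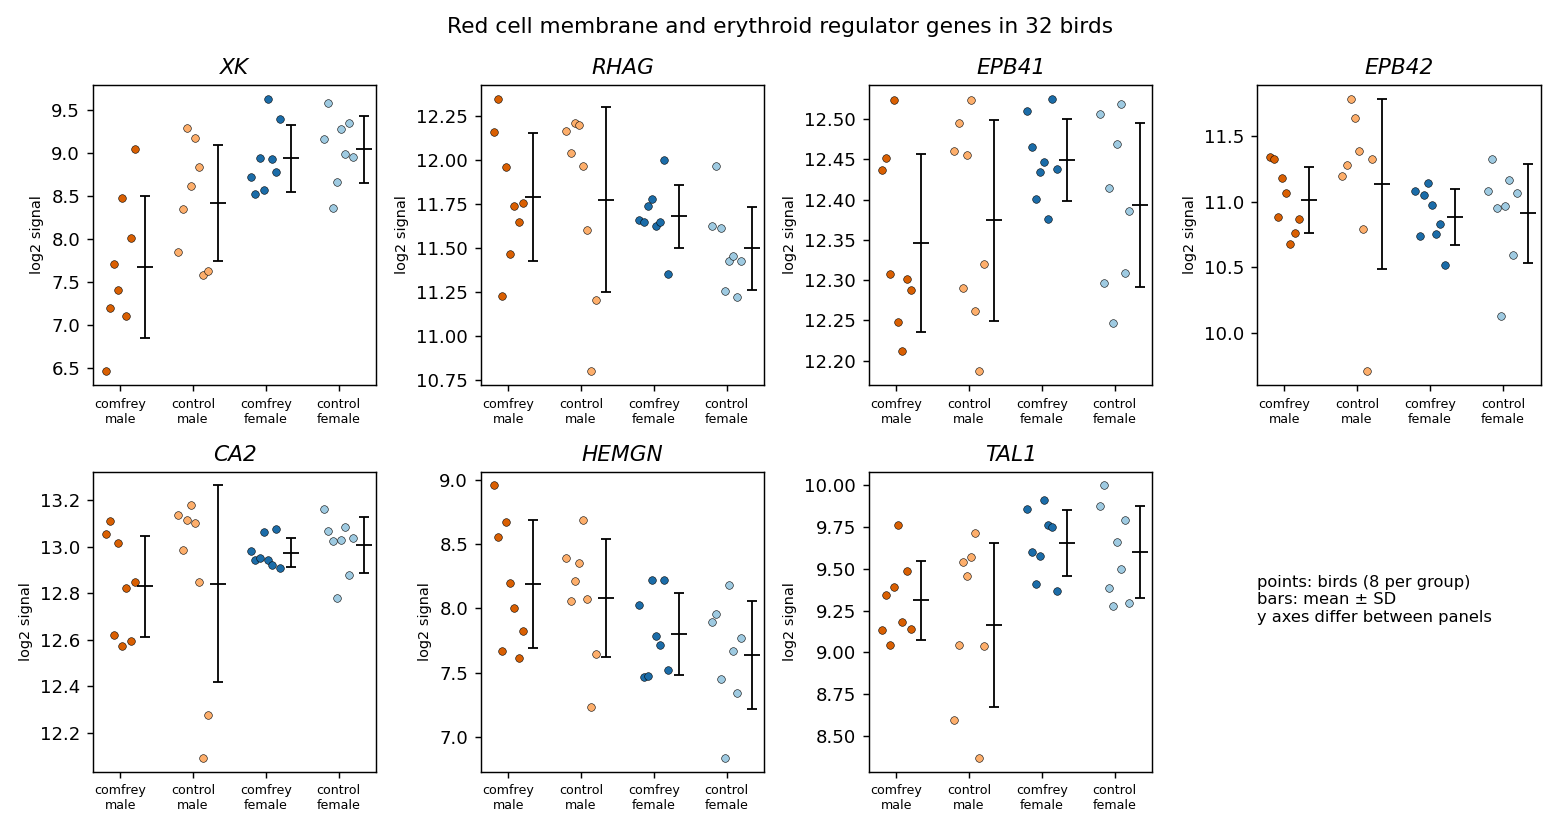
Log2 signal of the 7 genes (y axes, which differ between panels) in the 4 groups of 8 birds (x axis), with 1 point per bird and the mean ± SD beside each group. XK is low in comfrey males, with a mean of 7.68, and 2 control males have the lowest values in CA2, at 12.09 and 12.27.

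The clearest difference between groups was in XK, which was lower in males. In comfrey males XK had a lowest value of 6.46, a median of 7.56 and a highest value of 9.05, against 8.52, 8.86 and 9.63 in comfrey females. In control males the lowest, median and highest values were 7.59, 8.48 and 9.29, against 8.36, 9.08 and 9.58 in control females. Most males lay low but the sexes overlapped, with 10 of 16 males below every female and 4 of 16 females above every male. XK averaged 8.05 ± 0.82 in males and 8.99 ± 0.38 in females (SD, n = 16 each). Comfrey males had the lowest group mean, at 7.68 ± 0.82, followed by control males at 8.42 ± 0.67, comfrey females at 8.94 ± 0.39 and control females at 9.04 ± 0.39 (SD, n = 8 each), and neighbours in this order differed by less than the larger of their SDs. The difference between the sexes was -0.94 ± 0.21 (SE, 95% interval -1.37 to -0.52), a 1.92-fold lower signal in males, with an adjusted p of 0.00277 in limma. Only 0.58% of all probe sets had a larger absolute sex difference.

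TAL1 was also lower in males. Comfrey males had a lowest value of 9.05, a median of 9.26 and a highest value of 9.76, against 9.37, 9.68 and 9.91 in comfrey females. Control males had 8.37, 9.25 and 9.71, against 9.28, 9.58 and 10.00 in control females. Of 16 males, 8 lay below every female and 14 lay below the female median. The difference was -0.39 ± 0.11 (SE, 95% interval -0.61 to -0.17), a 1.31-fold lower signal in males, with an adjusted p of 0.0278 in limma. This call rested in part on the 2 control males with low CA2: without them the difference was -0.31 and the adjusted p 0.0681, so TAL1 was then not called. XK remained called without them, at -0.84 and an adjusted p of 0.0122.

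XK and TAL1 were the 2 of 7 genes called for sex, both lower in males. Over all probe sets 5.35% were called, 3.53% higher and 1.83% lower in males. At an unadjusted p under 0.05 there were 3 of the 7 genes, against 16.5% of all probe sets. The third of these was HEMGN.

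Split by the number in the sample titles, both genes were called among birds 1 to 16 and neither among birds 17 to 32. The 2 sets are parts of the same 32 birds, and the split was added after seeing the data. The first set holds 2 control males and the second 2 control females, and control males 7 and 8 are in the second. XK differed by -1.25 (adjusted p = 0.00176) among birds 1 to 16 and by -0.85 (adjusted p = 0.292) among birds 17 to 32, fitted apart in limma. For TAL1 the values were -0.56 (adjusted p = 0.0260) and -0.29 (adjusted p = 0.683). The direction was the same in both sets of birds, and the difference between the sets was not tested. The meaning of the bird number is not given in the labels.

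Of 9 measured thrombocyte genes, ITGB3 and GP1BB were called higher in males. In all, 7 of 9 differences were positive, those of VWF (-0.16) and P2RY12 (-0.06) were negative, and the median difference over the list was 0.49, against -0.06 for the 7 red cell genes and -0.025 for all probe sets. ITGB3 differed by 0.74 (adjusted p = 0.0418) and GP1BB by 0.49 (adjusted p = 0.0385; limma). Neither call was examined without control males 7 and 8, whose thrombocyte marker levels ranked 32 and 31 from the lowest. Both genes were also called higher in birds 17 to 32 than in birds 1 to 16, ITGB3 by 0.93 (adjusted p = 0.000549) and GP1BB by 0.57 (adjusted p = 0.00222; limma). Of the control birds, 6 of 8 males but 2 of 8 females were birds 17 to 32. Among markers of other cells the heterophil gene CXCR1 (0.28, adjusted p = 0.0312) and the Z-linked T cell gene IL7R (0.57, adjusted p = 0.00155) were also called higher in males. They were 1 of 4 heterophil and 1 of 7 T cell genes, and 0 of 8 B cell and 0 of 3 monocyte genes were called. Differences were negative for 0 of 4 heterophil, 2 of 7 T cell, 5 of 8 B cell and 1 of 3 monocyte genes. The summed linear signal of the thrombocyte list ran from a lowest value of 1258 over a median of 3570 to a highest value of 6242 in males, against 1313, 2045 and 3209 in females. The dimmest of the 9 was VWF at a mean of 2.76. Within groups the correlation with the mean of the thrombocyte list was 0.37 for XK and 0.18 for TAL1, with adjusted permutation p-values of 0.275 and 0.475. The part of thrombocytes in the sex difference of XK and TAL1 was not tested.

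HEMGN, the Z-linked member, had values on the other side. Comfrey males had a lowest value of 7.61, a median of 8.10 and a highest value of 8.96, against 7.47, 7.75 and 8.22 in comfrey females. Control males had 7.23, 8.14 and 8.69, against 6.84, 7.72 and 8.18 in control females. Of 16 males, 12 lay above the female median, and 6 lay above every female. The difference was 0.41 ± 0.14 (SE, 95% interval 0.12 to 0.71), with an adjusted p of 0.0967 in limma, so HEMGN was not called. HEMGN passed with bird number as a covariate (0.45, adjusted p = 0.0492). With 1 bird left out it passed in 1 of 32 fits, that without control male 7 (0.47, adjusted p = 0.0379). Without control males 7 and 8 it was 0.51 (adjusted p = 0.0229). Control male 7 had the lowest HEMGN value of the males. Leaving out low males raises the male mean, so these omissions are no support for a call. HEMGN did not pass among birds 1 to 16 alone (0.62, adjusted p = 0.208) or birds 17 to 32 alone (0.26, adjusted p = 0.747). Over all alternatives its adjusted p lay between 0.0229 and 0.747.

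Beside other Z-linked probe sets the difference of HEMGN lay between the medians of all and of the brighter ones. Over all 447 on Z the median difference was 0.28, and 46.1% were called higher in males. Among 204 probe sets on Z with a mean signal above 6.55, the median of the array, the median difference was 0.55, a 1.47-fold higher signal in males, and 81.9% were called higher. Of these probe sets 26.0% had a smaller difference than HEMGN. Among 9757 autosomal probe sets the median was -0.01, and 98.2% lay below HEMGN.

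**Figure D2:**
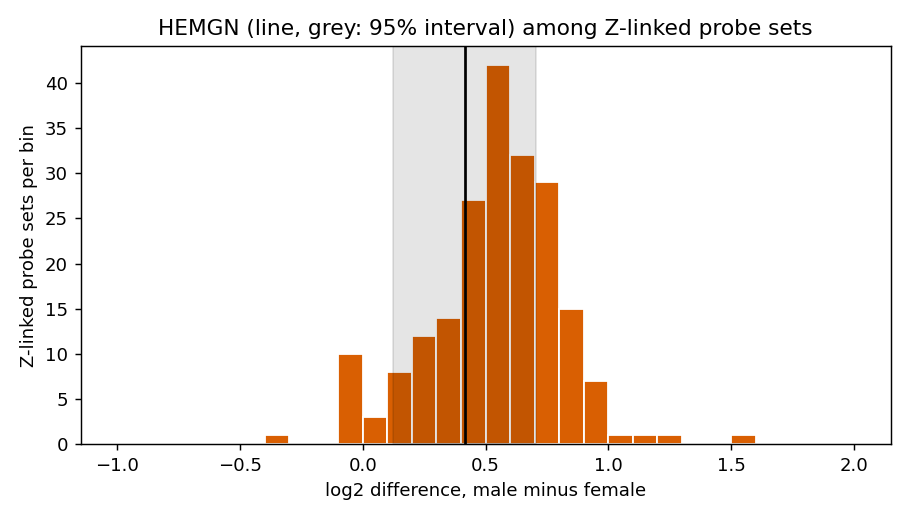
Number of probe sets (y axis) by log2 difference, male minus female (x axis), for 204 probe sets on Z with a mean signal above 6.55. The line marks HEMGN at 0.41 and the grey band its 95% interval of 0.12 to 0.71. HEMGN lies at the lower quartile of these differences, 0.41, and the band reaches below it.

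The other 4 genes were not called for sex. RHAG averaged 11.79 ± 0.36 in comfrey males and 11.68 ± 0.18 in comfrey females, and 11.77 ± 0.53 in control males and 11.50 ± 0.24 in control females (SD, n = 8 each). EPB42 averaged 11.01 ± 0.25 in comfrey males and 10.89 ± 0.21 in comfrey females, and 11.14 ± 0.65 in control males and 10.91 ± 0.38 in control females. EPB41 averaged 12.35 ± 0.11 in comfrey males and 12.45 ± 0.05 in comfrey females, and 12.37 ± 0.12 in control males and 12.39 ± 0.10 in control females. Males and females overlapped in all of these genes. RHAG differed by 0.19 ± 0.12 (adjusted p = 0.460), EPB42 by 0.18 ± 0.14 (adjusted p = 0.589), CA2 by -0.15 ± 0.08 (adjusted p = 0.377) and EPB41 by -0.06 ± 0.04 (adjusted p = 0.506; limma, SE). The 95% intervals bound a sex difference to between -0.05 and 0.44 for RHAG, -0.10 and 0.46 for EPB42, -0.33 and 0.02 for CA2, and -0.14 and 0.02 for EPB41. These values moved with which birds were included. With control males 7 and 8 left out, CA2 came to -0.05 (adjusted p = 0.722), RHAG to 0.30 (adjusted p = 0.0848), EPB42 to 0.27 (adjusted p = 0.196) and EPB41 to -0.05 (adjusted p = 0.655), none of them called. Leaving out control male 7 alone put CA2 at -0.10, and CA2 was -0.0040 among birds 1 to 16 and -0.23 among birds 17 to 32. On the control diet CA2 was -0.17 with all birds and 0.05 without the 2 control males. EPB41 had a small spread between birds, with a within-group SD of 0.10, above that of 2.3% of all probe sets and of 34.7% of the 500 nearest in brightness. That of XK, at 0.60, was above 94.1% and 96.8% of them.

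**Figure D3:**
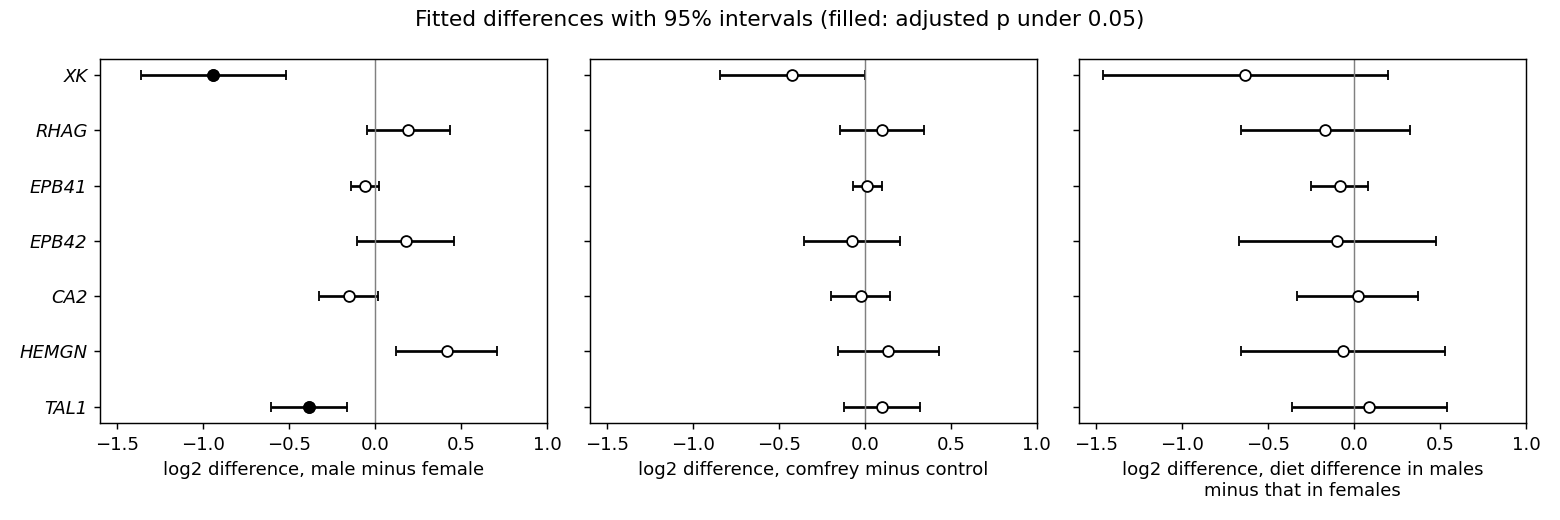
Fitted log2 differences with 95% intervals (x axes) for the 7 genes (y axis), for sex, diet and the diet by sex interaction, filled where the adjusted p is under 0.05. XK at -0.94 and TAL1 at -0.39 in the sex panel are the filled points, and no point is filled for diet or interaction.

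Taken by diet, the sex difference of XK was called on comfrey and not on the control diet. On comfrey it was -1.26 ± 0.29 (SE, adjusted p = 0.00597), with 7 of 8 males below every female. On the control diet it was -0.63 ± 0.29 (SE, adjusted p = 0.322), with 4 of 8 males below every female. The difference between these differences, the interaction of diet and sex, was -0.63 ± 0.41 (SE, unadjusted p = 0.129, adjusted p = 0.882 in limma), so the 2 diets are not shown to differ. TAL1 was -0.34 ± 0.16 on comfrey and -0.43 ± 0.16 on the control diet, with adjusted p-values of 0.355 and 0.162. XK was the 1 of 7 genes called on comfrey, where 3.13% of all probe sets were called and 0.643% were called lower in males. At an unadjusted p under 0.05 there were 2 of the 7 genes, against 12.2% of all probe sets. On the control diet limma called 0 of the 7 genes, against 2.75% of all probe sets, and 3 had an unadjusted p under 0.05, against 13.4%. With all birds the sex difference of RHAG on the control diet was 0.28 (adjusted p = 0.549 in limma). Without control males 7 and 8 it passed, at 0.53 (adjusted p = 0.0331 in limma). These 2 males had the lowest RHAG values of all birds, 10.8 and 11.21. Leaving them out raises the male mean, so the omission is no support for a call. XK on the control diet came to -0.36 without them (adjusted p = 0.771).

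Comfrey feeding gave no call in any of the 7 genes. XK came nearest to a call, with a lowest value of 6.46, a median of 8.55 and a highest value of 9.63 in comfrey birds, against 7.59, 8.89 and 9.58 in control birds. The ranges overlapped, with 4 of 16 comfrey birds, all males, below every control bird. The difference was -0.42 ± 0.21 (SE, 95% interval -0.84 to -0.00025), with an unadjusted p of 0.0499 and an adjusted p of 0.619 in limma. By sex, XK differed by -0.74 ± 0.29 in males (SE, unadjusted p = 0.0150, adjusted p = 0.423) and by -0.11 ± 0.29 in females (adjusted p = 0.998). The SE is the same because limma used 1 spread for both sexes, while the within-group SD of XK was 0.75 in males and 0.39 in females. These p-values do not allow for the larger spread in males.

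The count for diet was 0 of 7 called, as it was 0 of 17894 over all probe sets (0%) in limma. At an unadjusted p under 0.05 there was 1 of the 7 genes, XK, against 7.99% of all probe sets. Of the other 6 genes, HEMGN had the highest value at 0.14 ± 0.14 and EPB42 the lowest at -0.07 ± 0.14 (SE), with adjusted p-values of 0.771 and 0.874. The widest of their 95% intervals was that of HEMGN, -0.16 to 0.43, so a change of the red cell genes as large as that of XK between the sexes lies outside what these 6 intervals hold. The interaction of diet and sex was called for 0 of the 7 genes and for 0% of all probe sets, and at an unadjusted p under 0.05 for 0 of the 7, against 5.70% of all probe sets (limma). Within females the diet difference was called for 0 of 7 genes, against 0.00559% of all probe sets, and within males for 0 of 7, against 0%. At an unadjusted p under 0.05 there was 1 of 7 in males, XK, against 10.3% of all probe sets, and 0 of 7 in females, against 3.93%.

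Without control males 7 and 8 the diet differences of RHAG and EPB41 changed sign, to -0.01 and -0.00145, and no member was called. Within males RHAG, HEMGN and TAL1 then came to -0.24, -0.11 and -0.0094, against 0.02, 0.10 and 0.15 with all birds. XK in males came to -1.01 (unadjusted p = 0.00173, adjusted p = 0.719). This was the largest of 3 alternative fits in males, and the smallest was -0.60. Over both sexes the diet difference of XK lay between -0.53 and -0.22 in 13 alternative fits. None of these fits called XK in limma.

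The bird numbers were spread unevenly over the groups, with 4 of 8 birds of each comfrey group, 2 of 8 control males and 6 of 8 control females among birds 1 to 16. With diet and sex held, birds 17 to 32 differed from birds 1 to 16 in 522 probe sets (2.92%), none of them a member. XK came nearest, at 0.59 ± 0.19 (SE, unadjusted p = 0.00414, adjusted p = 0.0897 in limma), the only one of the 7 genes under an unadjusted p of 0.05, against 17.8% of all probe sets. With the 2 sets of birds as a block, XK differed between the sexes by -1.09 (adjusted p = 0.000134).

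All 7 genes varied more among males than among females of the same diet. The ratio of the within-group SD in males to that in females was 3.48 for CA2, 2.14 for RHAG, 1.93 for XK, 1.60 for TAL1 and EPB42, 1.46 for EPB41 and 1.28 for HEMGN. The median ratio was 1.60, against 1.05 over all probe sets, of which 55.7% had the larger SD in males. The ratio was above 1 for all 7 genes on comfrey alone and on the control diet alone, where it was for 57.2% and 50.9% of all probe sets. Without control males 7 and 8 it was above 1 for 6 of 7, with EPB42 at 0.97 and CA2 at 1.90. Some other blood genes had like ratios, and others did not. HBAD had a within-group SD of 0.10 in males and 0.05 in females, a ratio of 1.93, and HBA1 had a ratio of 1.79. The ratio was above 1 for 5 of 6 globins (median 1.55), 8 of 9 thrombocyte markers (median 1.58) and 12 of 18 other membrane and skeleton genes (median 1.26), but for 0 of 4 heterophil markers (median 0.63). The lists that remain had medians nearer the 1.05 of all probe sets. The ratio was above 1 for 13 of 24 other erythroid regulators (median 1.046), 3 of 7 other carbonic anhydrases (median 0.9) and 8 of 11 haem synthesis genes (median 1.099). It was above 1 for 5 of 7 T cell (median 1.025), 5 of 8 B cell (median 1.082) and 0 of 3 monocyte markers (median 0.918). These ratios are a description with no test.

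CA2 shows the pattern bird by bird. In comfrey males CA2 had a lowest value of 12.57, a median of 12.83 and a highest value of 13.11, against 12.91, 12.95 and 13.07 in comfrey females. In control males it had 12.09, 13.04 and 13.18, against 12.78, 13.03 and 13.16 in control females. The top of the range was alike in the 4 groups, and 5 of 16 males lay below every female.

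RHAG, CA2, EPB42, HEMGN and EPB41 varied together from bird to bird. After each value was set against the mean of its diet and sex group, 13 of 21 pairs of genes correlated at an adjusted permutation p under 0.05, all positively. The adjustment covers these 21 pairs alone, and the share of passing pairs among all probe sets was not computed. The 13 pairs include every one of the 10 pairs among RHAG, CA2, EPB42, HEMGN and EPB41, with Pearson's r between 0.56 and 0.91 over 32 birds. The median r of these 5 genes with all other probe sets lay between 0.008 (EPB42) and 0.047 (RHAG). In these 10 pairs at most 1.18% of probe sets had a higher r with a gene than its partner had. That was EPB41, which ranked 212 by r with RHAG, so these values are not particular to the 5 genes. XK passed with TAL1 alone, and its other 5 pairs had r between -0.12 and 0.19. When control males 7 and 8 were left out these 5 lay between -0.36 and -0.02, and none passed.

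**Figure D4:**
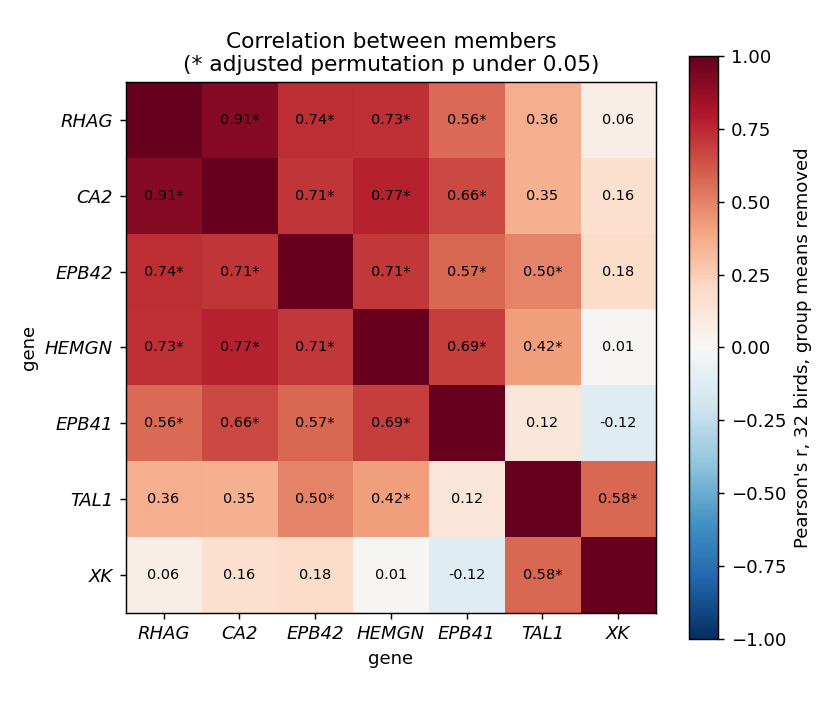
Pearson's r between the 7 genes (both axes) over 32 birds after removal of the group means, with an asterisk where the adjusted permutation p is under 0.05. RHAG, CA2, EPB42, HEMGN and EPB41 form a block of positive values of 0.56 or more, and XK stands outside it with TAL1 at 0.58.

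The closest pair was the ammonia channel RHAG and the carbonic anhydrase CA2, with r = 0.91 and Spearman's rho = 0.89, with adjusted permutation p-values of 7e-05 and 0.000105. Their unadjusted p of 1e-05 is the smallest that 100000 permutations can give. Without the 2 birds farthest from the median r was 0.87, among birds 1 to 16 it was 0.86 and among birds 17 to 32 it was 0.94. With control males 7 and 8 left out it was 0.84 (adjusted permutation p = 0.00021). No other probe set had a higher r with RHAG than CA2, or with CA2 than RHAG. CA2 and HEMGN followed at r = 0.77 and rho = 0.80 (adjusted permutation p = 7e-05 and 0.000105), and they passed within both sets of birds too, at 0.79 and 0.81.

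XK and TAL1, the genes that were lower in males, correlated within groups at r = 0.58 and rho = 0.60 (adjusted permutation p = 0.00292 and 0.00259). Without the 2 birds farthest from the median of the centred XK values r was 0.72, and without control males 7 and 8 it was 0.50 (adjusted permutation p = 0.0121). It was 0.53 among birds 1 to 16 and 0.56 among birds 17 to 32, with adjusted permutation p-values of 0.0795 and 0.112, so neither set of 16 birds passed alone. Among all probe sets 0.45% had a higher r with XK than TAL1 had.

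The pairs of TAL1 with EPB42 (r = 0.50) and with HEMGN (r = 0.42) lay close to the threshold. Both had an adjusted permutation p of 0.043, and neither passed by Spearman's rho (adjusted permutation p = 0.14 and 0.0518). Leaving out control males 7 and 8 gave 0.23 and 0.24. Leaving out 1 bird at a time, the first lost its call in 15 and the second in 18 of 32 cases. The same 2 birds moved the pair of RHAG and EPB41, whose r of 0.56 became 0.44 without them (adjusted permutation p = 0.0703). In all, 10 of 21 pairs passed without control males 7 and 8. The r of RHAG and EPB41 was likewise 0.44 without the 2 birds farthest from the median of the centred RHAG values (adjusted permutation p = 0.055).

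**Figure D5:**
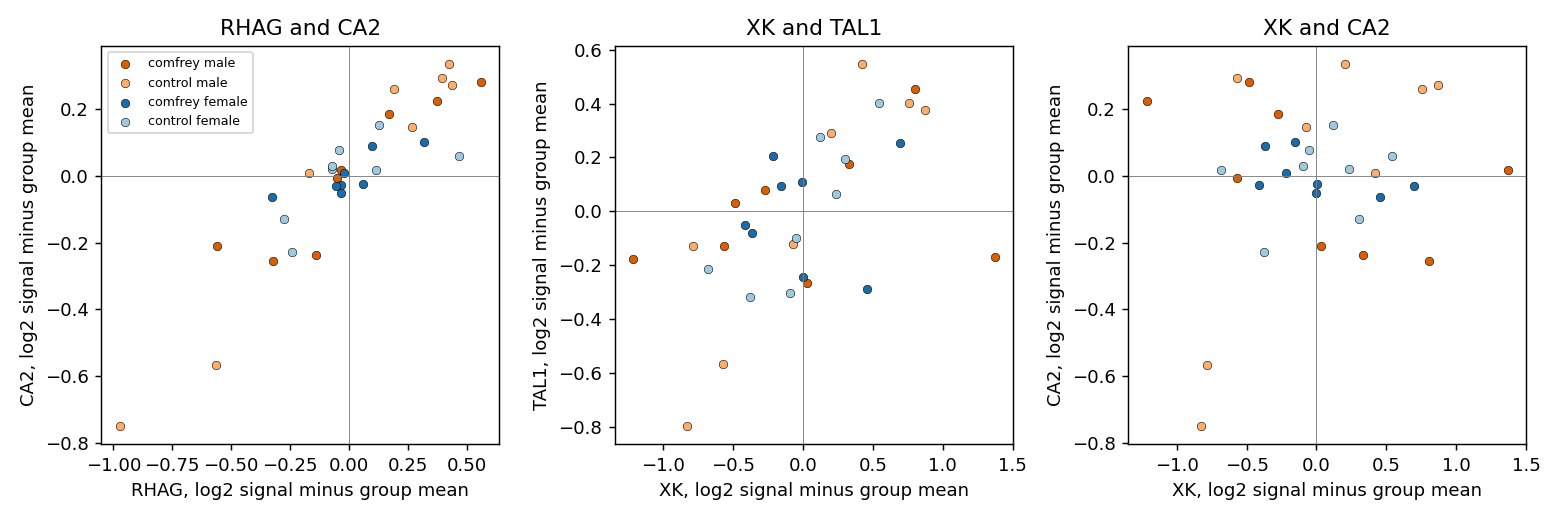
Log2 signal minus the group mean for RHAG against CA2, XK against TAL1 and XK against CA2, with 1 point per bird coloured by group. RHAG and CA2 lie along a line (r = 0.91), XK and TAL1 follow a looser one (r = 0.58), and XK and CA2 show none (r = 0.16).

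Within each set of 16 birds fewer pairs passed, 5 of 21 among birds 1 to 16 and 4 of 21 among birds 17 to 32, although 17 and 21 of the pairs were positive. The values were still centred on group means over all 32 birds, so differences between groups can remain within a set. The median r was 0.46 in the first set, 0.61 in the second and 0.56 over all birds. The level of other blood cells was compared with the members in the same way, in 35 correlations of 7 genes with 5 marker lists. None passed adjustment. The lowest adjusted permutation p was 0.104, for EPB42 with the B cell markers at r = -0.56. The 5 genes of the block all had a negative r with the thrombocyte markers, between -0.49 for CA2 and -0.32 for HEMGN, with unadjusted permutation p-values between 0.0239 and 0.128. These genes had a negative r with each of the other marker lists too. For CA2 (-0.49), EPB41 (-0.46) and RHAG (-0.43) the r with thrombocyte markers was the lowest of the 5 lists. EPB42 was lower with B cell (-0.56) and T cell markers (-0.48) than with thrombocyte markers (-0.325), and HEMGN was lower with B cell markers (-0.37). The part of other cell types in the block was not tested.

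Outside the 7 genes, the probe sets most like them were named by the highest r over the 32 birds, as a description. RHAG and CA2 shared their next neighbours: EPAS1, an oxygen-sensing transcription factor, had r = 0.83 with RHAG and 0.88 with CA2, and DCAF5 had 0.82 and 0.90. For HEMGN they were the kinase MKNK2 (0.77), NCOA4 (0.77), which delivers ferritin for breakdown, and the glutathione transferase GSTA4 (0.77). GSTA4 was also nearest to EPB42 (0.82), followed by CCDC124 (0.79) and the ribosomal protein gene RPL36A (0.77). EPB41 was nearest to ESAM (0.79), the ribosomal protein gene RPS10 (0.79) and MMS19 (0.74). The neighbours of XK were STX16 (0.75), E4F1 (0.71) and the ATP synthase subunit gene ATP5C1 (0.70), and those of TAL1 were G3BP2 (0.71), EPG5 (0.69) and the ribosomal protein gene RPS28 (0.66). Each array contributes 1 value to every gene, so differences between arrays are shared by all of these correlations.

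Related genes gave other calls for sex in 6 of 66 measured genes, all of them higher in males. Over all probe sets 5.35% were called, and 3.53% were called higher. At an unadjusted p under 0.05 in limma there were 13 of the 66 (19.7%), against 16.5% of all probe sets. Of 18 other measured genes of the membrane and skeleton, 2 were called, the adducin ADD3 (0.35 ± 0.08, adjusted p = 0.00421) and stomatin, STOM (0.24 ± 0.07, adjusted p = 0.0378), and the median difference was -0.06. The anion exchanger SLC4A1, the binding partner of EPB42, was at 0.28 ± 0.11 (adjusted p = 0.151), and MPP1, a scaffold that binds EPB41, at 0.23 ± 0.07 (adjusted p = 0.0625). Of 24 other erythroid regulators 2 were called, JAK2, the kinase of the erythropoietin receptor (0.21 ± 0.03, adjusted p = 3.52e-05), and SSBP2, whose product joins the complexes of TAL1 (0.90 ± 0.08, adjusted p = 1.5e-10). Both are Z-linked, and the list's median was 0.07. Of 11 haem synthesis genes 2 were called, the Z-linked FECH, which inserts iron into haem (0.45 ± 0.05, adjusted p = 3.29e-08), and ALAS1 (0.19 ± 0.06, adjusted p = 0.0494; limma, SE). None of 6 globin genes and none of 7 other carbonic anhydrases was called for sex in limma, and none in either list had an unadjusted p under 0.05.

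For diet none of these related genes was called in limma. Unadjusted, 4 of 66 had a p under 0.05 (6.06%), against 7.99% of all probe sets, so the share was no larger than the background. They were MPP1 (-0.22 ± 0.07), BSG (0.19 ± 0.09), KIT (0.27 ± 0.11) and MB (-0.19 ± 0.07; SE), each with an adjusted p of 0.614 or 0.617. The medians for diet lay between -0.05 for the carbonic anhydrases and 0.03 for the erythroid regulators, against 0.01 for the 7 members and -0.01 for all probe sets.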

How the data were processed

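Whole blood RNA was hybridised to GeneChip arrays, per the labels' protocols. The deposited values are log2 signals per probe set made by the authors with GCOS 1.1.1 and RMA, per the submitters' processing notes. RMA corrects background, normalizes quantiles over arrays and summarises probes, which limits differences that most genes share. No source used here names the genome build of the array. Of 20804 rows, 2910 were blank in all arrays and were left out, and no filter on low signal was used. Of the tested rows 10264 list a single symbol, 182 several and 7448 none in the platform annotation, and 9770 were matched by gene ID to the RefSeq table of GRCg7b, which gave chromosomes.

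Differences were fitted with lmFit and eBayes in limma 3.58.1 (R 4.3.3), with diet and sex as terms, their product for the interaction, or a mean per group, over all 32 arrays. Each probe set had 1 estimate of its spread in a fit, shared by all groups. P-values are two-sided and adjusted by the Benjamini-Hochberg method over all probe sets. Groups came from the labels, and replicates were numbered in order within each group. Correlations used values centred on the group means, two-sided permutation within groups with 100000 resamples, and adjustment over the 21 pairs. The means over all 32 birds were kept for the sets of 16 birds and for leaving out the 2 birds farthest from the median. Those 2 birds were picked by the centred values of the first gene of a pair. The fit was tested on simulated data. The members and gene lists were chosen with earlier results of these data known. All 7 members are named, with the 3 nearest genes of each, called genes of the related lists, and of each list at most 4 with the lowest p. Alternatives were other scalings, fewer probe sets, array weights, robust eBayes, bird number terms, other covariates, leaving out each bird, and, added after seeing the data, birds 1 to 16 and 17 to 32 apart, the SD ratios by diet, correlations with marker lists, and leaving out 2 control males.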

Additional observations from a re-analysis of the deposited data

How the results depend on the processing

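Of 1568 values recomputed with 1 bird left out, 1503 kept their direction and their side of the threshold and 65 did not. Of 567 under the other alternatives 492 did and 75 did not: 35 turned sign, 29 lost a call, 4 gained one and 7 counts moved by over 1.5 times. XK kept its sex call under every scaling, filter, weighting and bird number term tried, and lost it among birds 17 to 32 alone. The counts moved most with the bird sets: 477 probe sets were called for sex in birds 1 to 16 and 412 in birds 17 to 32, with 0 members in the second, and 5 and 4 pairs of members correlated. Without control males 7 and 8, chosen after seeing the data, 1 member, RHAG, passed for sex on the control diet. Both birds had the lowest RHAG values, so this is no support for a call. With only the 16 female arrays the diet difference in females called 0 probe sets. Signs turned in small differences. For diet these were EPB41 at -0.0056 after subtracting the mean of brighter named probe sets, -0.0146 in birds 17 to 32 and -0.00145 without the 2 control males, RHAG at -0.0130 without them, and EPB42 at 0.0244 in birds 1 to 16. EPB41 differed between the sexes by 0.0168 in birds 1 to 16. The interaction of CA2 was -3.12e-06 with quantile normalization, -0.0300 with array weights, -0.116 with bird number, -0.0549 with the bird sets as a block and -0.198 without the 2 control males, where that of TAL1 was -0.0656. With the block, the diet difference in females was 0.0288 for EPB42 and 0.00415 for CA2, that of RHAG in males was -0.0437, and EPB41 differed between the sexes on the control diet by 0.0272. Without the 2 control males, the diet difference in males was -0.241 for RHAG, -0.110 for HEMGN and -0.0094 for TAL1, and the sex difference on the control diet was 0.0215 for EPB41 and 0.0538 for CA2. The correlation of XK and RHAG was -0.138 uncentred, -0.225 in birds 1 to 16 and -0.333 without the 2 males. XK and EPB41 had 0.126 uncentred and 0.273 in birds 17 to 32, XK and EPB42 -0.022 without the 2 males, and XK and CA2 -0.311 in birds 1 to 16 and -0.356 without the 2 males. XK and HEMGN had -0.303 uncentred, -0.143 in birds 1 to 16 and -0.232 without the 2 males. EPB41 and TAL1 had -0.077 without the 2 birds farthest from the median and -0.119 without the 2 males, and CA2 and TAL1 -0.084 without them. Leaving out 1 bird, interactions ran between -0.0857 and 0.0694 (CA2), -0.303 and 0.0137 (EPB42), -0.185 and 0.0503 (HEMGN) and -0.0251 and 0.167 (TAL1), with 0 to 1 probe sets called. Correlations ran between -0.084 and 0.218 (EPB41 and TAL1), -0.013 and 0.265 (XK and CA2), -0.017 and 0.279 (XK and EPB42), -0.118 and 0.184 (XK and HEMGN) and -0.117 and 0.169 (XK and RHAG). The cause of these changes was not tested. No paired analysis was possible because the labels pair no birds and replicate numbers only name them.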

Other observations

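Markers of other blood cells differed between birds 17 to 32 and birds 1 to 16, with diet and sex held. Of 9 thrombocyte genes 6 were called higher in birds 17 to 32, among them GP9 (1.62 ± 0.23, adjusted p = 0.000149) and F13A1, a clotting factor subunit (1.17 ± 0.22, adjusted p = 0.00144; limma, SE). Called higher too were TLR4, 1 of 3 monocyte genes (0.75, adjusted p = 0.000149), and BTK, 1 of 8 B cell genes (0.44, adjusted p = 0.00603). So was IL7R, 1 of 7 T cell genes (0.37, adjusted p = 0.0488), and 0 of 4 heterophil genes were called. Of 24 other erythroid regulators 2 were called higher, IKZF1 (0.33, adjusted p = 0.0077) and SPI1, a myeloid transcription factor (0.37, adjusted p = 0.0401). Of 6 globin genes HBZ was called lower (-0.43, adjusted p = 0.0059; limma). Over all probe sets 2.92% were called.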
